A study of Mus musculus with 2 samples.

Results

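Mir132 and Mir212 are a pair of microRNA genes that lie side by side on mouse chromosome 11 and are read in the same direction. They were taken as the rows of both count tables whose gene identifiers belong to Mir132 and Mir212 in gene annotation release M21 (build mm10), 2 of 2202 microRNA genes in all. The small RNA came from hearts of female adults, aged 8 to 10 months, of the strain label 5xFAD/CAST. 5xFAD is a transgenic line made to model Alzheimer disease, whose transgenes are driven by a neuronal promoter, and CAST is an inbred strain of a wild mouse subspecies. Replicates 1 and 2 form the only group, with no control heart and no heart described as hypertrophic. The labels call them biological replicates and give them different biosample identifiers but the same donor identifier, so whether they come from separate animals is not clear. P-values below set the difference between these samples against counting error only, and that difference may be technical.

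MicroRNAs are cut from hairpin precursors and loaded as short single strands that pair with messenger RNAs, mainly through the seed, bases 2 to 8 of the mature strand. Mir132 and Mir212 are made from 1 shared primary transcript whose transcription is induced by the activity-dependent factor CREB, and they are best known from neurons. In the heart, both are known to promote cardiomyocyte hypertrophy and to repress the transcription factor Foxo3, and miR-132 has been a drug target in heart failure. These libraries hold no messenger RNA and no hypertrophic heart, so neither role was measured here.

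The mature strands show why the genes are treated as 1 family. The sequences are from RefSeq (GRCm38.p6, the assembly also called mm10), where all 4 mature arms of the 2 genes were found. They are written 5′ to 3′ with the seed in capitals.
mmu-miR-132-3p: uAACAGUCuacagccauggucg
mmu-miR-212-3p: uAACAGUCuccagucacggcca
mmu-miR-132-5p: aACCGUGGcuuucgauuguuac
mmu-miR-212-5p: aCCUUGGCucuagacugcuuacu

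The 3p strands shared the seed AACAGUC, and no other of the 1679 mature microRNA names in the RefSeq table carried it. The 3p strands were identical over the first 9 bases from the 5′ end and at 17 of 22 positions in all. Their differences, counted from the 5′ end with the miR-132-3p base first, were A10C, C14U, U17C, U20C and G22A, all outside the seed. The 5p strands had different seeds and matched at 14 of 21 positions in the best alignment without gaps. Neither 5p seed occurred in a mature strand of any other gene in the table.

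The hairpins are shown because the counts are per hairpin gene and do not separate the arms. Capitals mark the 5p arm and then the 3p arm.
Mir212: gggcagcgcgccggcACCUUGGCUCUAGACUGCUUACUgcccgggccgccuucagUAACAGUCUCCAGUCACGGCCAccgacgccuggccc
Mir132: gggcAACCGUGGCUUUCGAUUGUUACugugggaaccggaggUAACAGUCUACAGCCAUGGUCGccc

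Mir212 (ENSMUSG00000065590.1) lies at chr11:75173388-75173478 and Mir132 (ENSMUSG00000065537.2) at chr11:75173682-75173747, both on the plus strand of mm10. A gap of 203 bases separates them. Both fall in an intron, between exons 1 and 2 of the noncoding gene 1700016P03Rik (75172560 to 75177633, plus strand), and overlap none of its 3 annotated exons. The nearest protein-coding genes that overlap neither microRNA gene are Hic1, a transcriptional repressor gene, and Ovca2. By coordinate, the nearer edge of Hic1 lies 3868 bases before Mir212 and that of Ovca2 2194 bases after Mir132. Hic1 and Ovca2 are both on the minus strand.

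**Figure D1:**
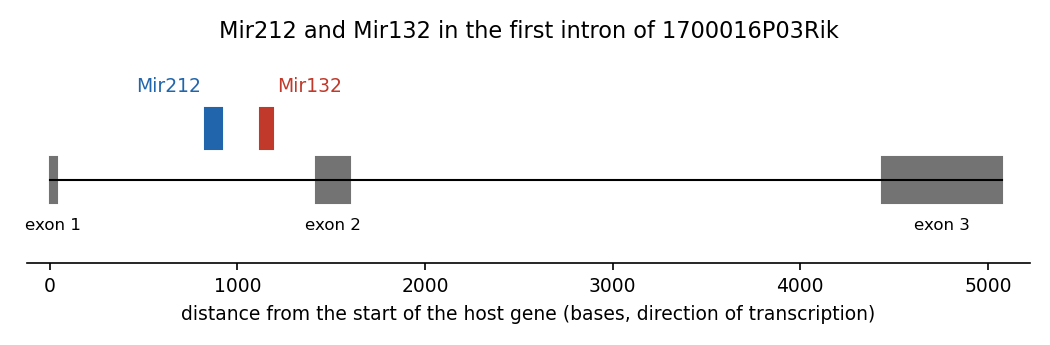
Map of the host gene 1700016P03Rik, with the distance from its start in bases on the x axis, its 3 exons as grey boxes on the line and the microRNA genes as coloured boxes above it. Mir212 starts 828 bases and Mir132 1122 bases from the host's start, and both lie before exon 2.

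The hairpins differed in size and composition. Mir212 has 91 bases and a GC content of 69.2%, and only 2.99% of the 1005 hairpins in the RefSeq table were higher. Mir132 has 66 bases and a GC content of 57.6%, against a median of 51.7% over the hairpins. The minimum free energy of the fold predicted by RNAfold was -41.5 kcal/mol for Mir212 and -37.2 kcal/mol for Mir132. Per base the order was reversed, at -0.46 kcal/mol for Mir212 and -0.56 kcal/mol for Mir132. The longest run of bases that the hairpins shared was the 10 bases GUAACAGUCU, at the start of the 3p arms.

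Reads that fitted several places were assigned to no gene in these tables, so shared sequence can lower a count. None of the 4 mature arms shared a run of 18 bases with another annotated transcript on either strand. Against other microRNA precursors the longest run shared by a mature arm was 11 bases. The last 18 bases of the Mir212 hairpin, positions 74 to 91 from its 5′ end, were shared with a transcript of 1700017B05Rik, and they hold only the last 4 bases of the 3p arm. Places outside annotated transcripts were not searched.

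Replicate 1 had 13233055 reads, 4186560 of them on microRNA genes, and replicate 2 had 8930289, with 2877511 on microRNA genes. Levels are counts per 1000000 gene counts (CPM) on the strand of the gene. Reads that fitted several loci made up 42.4% and 43.2% of all reads and are outside every level here. Of the 2202 genes, 380 reached 1 CPM in both libraries, Mir132 and Mir212 among them. Intervals on counts are exact at 95% and cover counting error only, because without molecular identifiers reads cannot be taken as separate molecules. The heart markers Mir208a and Mir499, carried in myosin genes, stood at 1356 ± 399 and 4202 ± 826 CPM (SD, n = 2). By mean CPM they were the highest of the genes listed for cardiomyocytes. Mir208b and the copies of Mir1a and Mir133a lay far lower, and the copies lost reads shared between loci. No other tissue was measured, so the tissue label was not tested.

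Mir132 was among the more abundant of the detected genes, though far below the leading ones. It had 1678 counts in replicate 1, which is 401 CPM (exact Poisson 95% interval 382 to 420), and 1056 counts in replicate 2, which is 367 CPM (345 to 390). The libraries thus lay close together, replicate 1 slightly higher, and their counting intervals overlapped. The mean was 384 ± 23.9 CPM (SD, n = 2), or 0.0401% and 0.0367% of the gene counts. By level Mir132 ranked 87 in replicate 1 and 84 in replicate 2 among the 2202 genes. The median over detected genes was 34.2 CPM.

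Mir212 was a gene of low abundance. It had 58 counts in replicate 1, which is 13.9 CPM (exact Poisson 95% interval 10.5 to 17.9), and 74 counts in replicate 2, which is 25.7 CPM (20.2 to 32.3). Replicate 2 was the higher library, and the counting intervals did not overlap. The mean was 19.8 ± 8.39 CPM (SD, n = 2), below the median of detected genes. Its rank was 237 in replicate 1 and 201 in replicate 2. Summed, the 3p seed family had 415 CPM in replicate 1 and 393 CPM in replicate 2, a mean of 404 ± 15.5 CPM (SD, n = 2), nearly all from Mir132. The sum is over hairpin genes and includes any 5p reads.

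**Figure D2:**
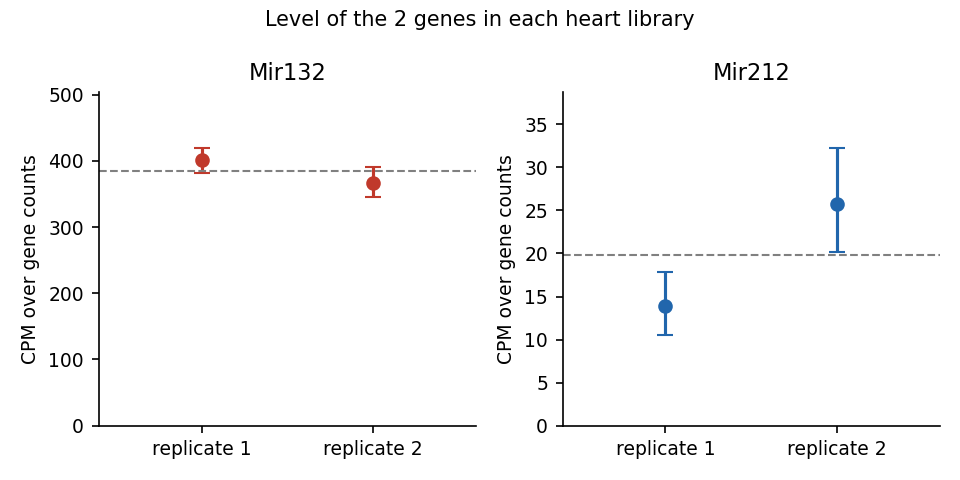
CPM over gene counts (y axis, starting at 0, a different range in each panel) of Mir132 and Mir212 in heart replicates 1 and 2. Points are the libraries, bars exact Poisson 95% intervals of the counts and dashed lines the means (384 and 19.8 CPM); the bars overlap for Mir132 and not for Mir212.

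Most reads of the locus came from Mir132. In replicate 1, Mir132 supplied 96.7% of the counts of the 2 genes (95.7 to 97.5, the exact 95% limits of Clopper and Pearson). In replicate 2 it supplied 93.5% (91.8 to 94.8), which gives 95.1% ± 2.27 on average (SD, n = 2). The ratio of Mir132 to Mir212 counts was 28.9 in replicate 1 (22.3 to 38.3) and 14.3 in replicate 2 (11.3 to 18.3). A microRNA read spans about 1 mature strand whatever the hairpin's length, so counts were compared directly. Divided by annotated length, the levels of Mir132 were 6.07 and 5.56 CPM per base and those of Mir212 0.152 and 0.283, which gives ratios of 39.9 and 19.7. On either scale Mir132 had the higher level in both libraries. How evenly the libraries captured different sequences was not measured.

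The balance of the 2 genes differed between the libraries by more than counting error. Mir212 held 3.34% of the pair's counts in replicate 1 and 6.55% in replicate 2 (odds ratio 2.03, exact 95% interval 1.40 to 2.94, Fisher's exact test, two-sided, p = 8.07e-05). On the log2 scale Mir212 moved by 1.02 relative to Mir132 (0.49 to 1.55). This contrast is taken within each library and does not depend on how the libraries are scaled. It compares 2 libraries and no conditions.

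Scaled by TMM, a method that sets library sizes from the bulk of the genes, the divergence lay with Mir212. Its ratio of replicate 2 over replicate 1 was 0.96 on the log2 scale (exact 95% interval 0.45 to 1.49), a fold of 1.95, and it passed the exact binomial test (Benjamini-Hochberg adjusted p = 0.000328 over 309 genes). Mir132 had a log2 ratio of -0.06 (-0.17 to 0.06) and did not pass in the same exact test (adjusted p = 0.429). Its interval places the fold between 0.890 and 1.04 under this scaling. With plain totals the log2 ratio of Mir132 was -0.13 and with DESeq2 size factors -0.20, and it then passed as lower in replicate 2 (adjusted p = 0.0406 and 0.000636 in exact tests). Mir212 passed as higher under each scaling computed.

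Passing this test was common. Over the 309 genes tested, 63.4% differed between the libraries (35.3% higher and 28.2% lower in replicate 2), so 1 of 2 members past the test is no more than the background. DESeq2 size factors shift the median log2 ratio of tested genes from 0.01 to -0.14. With them 44.6% of the genes past the test were higher in replicate 2, in place of 55.6%. The absolute log2 ratio of Mir212 was larger than that of 79.3% of tested genes, and that of Mir132 larger than that of 8.74%. The median tested gene differed 1.43-fold. Among the 38 other tested genes within 2-fold of the mean CPM of Mir132, 86.8% differed between the libraries and 55.3% were higher in replicate 2. Mir132 was thus 1 of the minority at its level that did not pass under TMM. Within 2-fold of the mean CPM of Mir212, 48.2% of 85 other genes differed and 18.8% were higher in replicate 2.

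**Figure D3:**
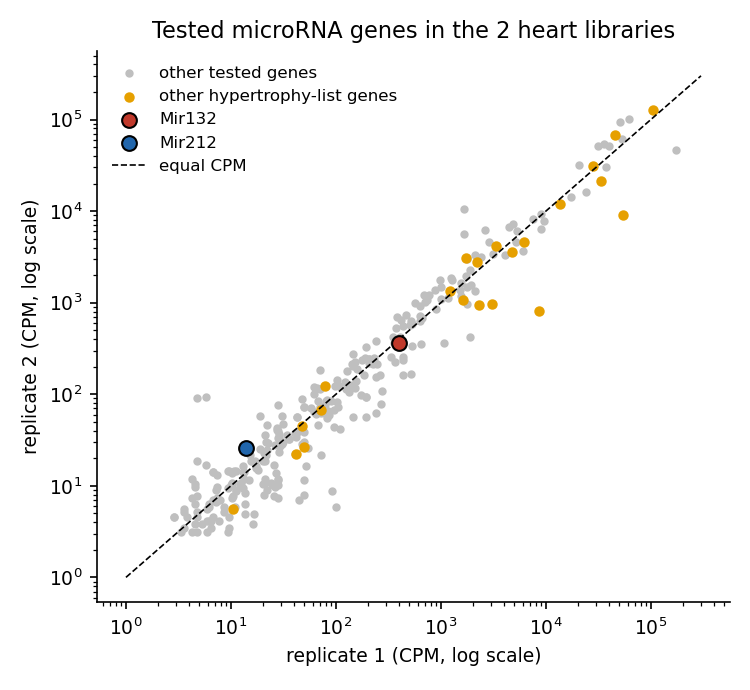
CPM in replicate 1 (x axis) against replicate 2 (y axis), both on log scales, for the 309 tested microRNA genes, with Mir132, Mir212 and the other listed hypertrophy genes coloured and a dashed line at equal CPM. Mir132 (401 and 367 CPM) lies close to the line and Mir212 (13.9 and 25.7 CPM) above it.

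Neighbouring microRNA genes often diverged in the same way. Genes on 1 strand with gaps up to 10 kb were joined into clusters, which gave 82 pairs of adjacent tested genes. Pairs of 1 cluster can share a gene, so the 82 pairs are not independent and are not 82 separate loci. By the absolute difference of their log2 ratios, Mir212 and Mir132 ranked 25 of 82, at 1.02 against a median of 0.686. The pair ranked just above was Mir27a and Mir24-2 (1.04), and the pair just below Mir351 and Mir503 (0.98). In Fisher's exact tests of each pair, adjusted over all 82, 59.8% of pairs differed between the libraries, and Mir212 and Mir132 were among them (adjusted p = 0.000228).

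The gap in level between the 2 genes was wider than in most such pairs. The absolute log2 difference of their mean CPM was 4.28, rank 14 of 82, against a median of 2.06. Mir18 and Mir20a of the Mir17-92 cluster (4.30) ranked just above and Mir181a-2 and Mir181b-2 (4.27) just below. Unequal read counts of neighbouring hairpin genes were thus found at many loci in these libraries. They are not a measure of how much of each hairpin was made. In some of these pairs 1 or both genes have copies elsewhere, as Mir181a-2 and Mir181b-2 do. Reads shared with the copies were left out, so the levels of such genes are too low.

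**Figure D4:**
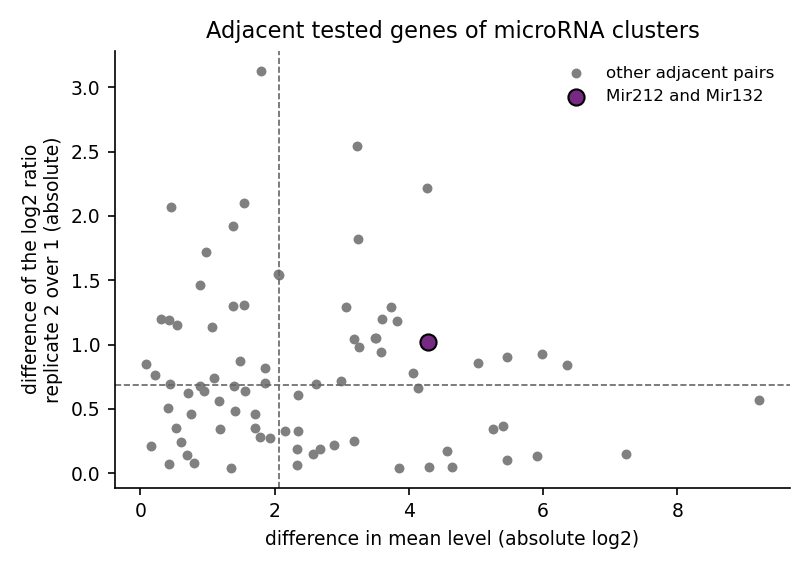
Each point is a pair of adjacent tested genes of a microRNA cluster, with the absolute log2 difference of their mean CPM on the x axis and the absolute difference of their log2 ratios of replicate 2 over replicate 1 on the y axis. Dashed lines are the medians over the 82 pairs (2.06 and 0.686), and Mir212 and Mir132 (4.28 and 1.02) lie above both.

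GC content was examined beside the ratio because that of Mir212 is high. The 58 tested genes with a precursor GC content of 60% or more had a median log2 ratio of 0.21. By the sign of the ratio, 34 of these 58 were higher in replicate 2, beside 156 of all 309 tested genes. The 113 genes from 50% up to 60%, the class of Mir132, had a median of 0.01, and 57 of them were higher. Over all 309 tested genes, which share the same 2 libraries, Spearman's rho between GC content and log2 ratio was 0.05. The part of GC content in the difference of Mir212 was not tested.

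In the order of mean level, Mir132 (rank 85) stood between Mir30b (416 ± 14.1 CPM) and Mir351 (383 ± 47.9 CPM; SD, n = 2). Mir30b was above Mir132 in both libraries, by 406 against 401 CPM and 426 against 367 CPM. Mir351 was below it in replicate 1, with 349 CPM, and above it in replicate 2, with 417 CPM, so these neighbours are not ordered beyond their spread. Mir212 (rank 218) stood between Mir434 (21.3 and 18.4 CPM) and Mir190b (27.9 and 11.5 CPM). Both were above it in replicate 1 and below it in replicate 2.

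The genes whose levels lay nearest, by distance in log2 CPM over the 2 libraries, came from other chromosomes. For Mir132 they were Mir872 (distance 0.171), Mir30b (0.215), Mir351 (0.271), Mir1839 (0.436) and Mir335 (0.525). For Mir212 they were Mir8114 (0.282), Mir134 (0.448), Mir331 (0.500), Mir1968 (0.509) and Mir375 (0.540). With 2 libraries such nearness describes level and direction only.

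Along the chromosome no other microRNA gene lay close. The next annotated one before the pair, Mir6926, is 305 kb away and had 3 counts in replicate 1 and 0 in replicate 2, where a count of 0 allows up to 1.04 CPM. The next one after it, Gm47300, is 145 kb away and had 0 counts in both libraries, which allows up to 0.717 and 1.04 CPM. Mir22, itself known to promote cardiac hypertrophy, is 290 kb away on the same strand. It had 54550 CPM in replicate 1 and 9084 CPM in replicate 2, a log2 ratio of -2.51, the opposite sign to Mir212.

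Set beside other microRNA genes known for promoting hypertrophy, Mir132 and Mir212 were among the less abundant. Of 17 listed genes, members included, Mir132 was in place 11 and Mir212 in place 14 by mean CPM. Mir23a, induced by the hypertrophy factor NFAT, led at 56811 ± 15656 CPM, followed by Mir22 at 31817 ± 32150 CPM (SD, n = 2). Mir27b stood at 5376 ± 1098 CPM, Mir195a at 4653 ± 5440, Mir499 at 4202 ± 826 and Mir155, also a leukocyte gene, at 3721 ± 566 (SD, n = 2). Mir208a, at 1356 CPM, was 3.53 times the level of Mir132, while Mir208b, the partner of the fetal myosin gene Myh7, stood at 32.0 ± 13.8 CPM, between Mir132 and Mir212. The genes placed below Mir212 were Mir199b (8.04 ± 3.50 CPM), Mir199a-2 (2.74 ± 2.89 CPM, SD, n = 2) and Mir199a-1, which had no count. Reads shared between the Mir199 copies were left out, so these values set no limit on their mature microRNAs. Mir212 was the lowest of the other listed genes.

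Between the libraries the list had no common direction. Among its 15 tested genes the test called 6 as higher and 7 as lower in replicate 2 and left 2 uncalled, beside 35.3% higher and 28.2% lower over all tested genes. The median log2 ratio was -0.33, against 0.01 over all. Mir195a (log2 ratio -3.33) and Mir22 (-2.51) moved far more than Mir132. With DESeq2 size factors or plain totals 9 were lower, Mir132 now among them, and 6 higher.

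**Figure D5:**
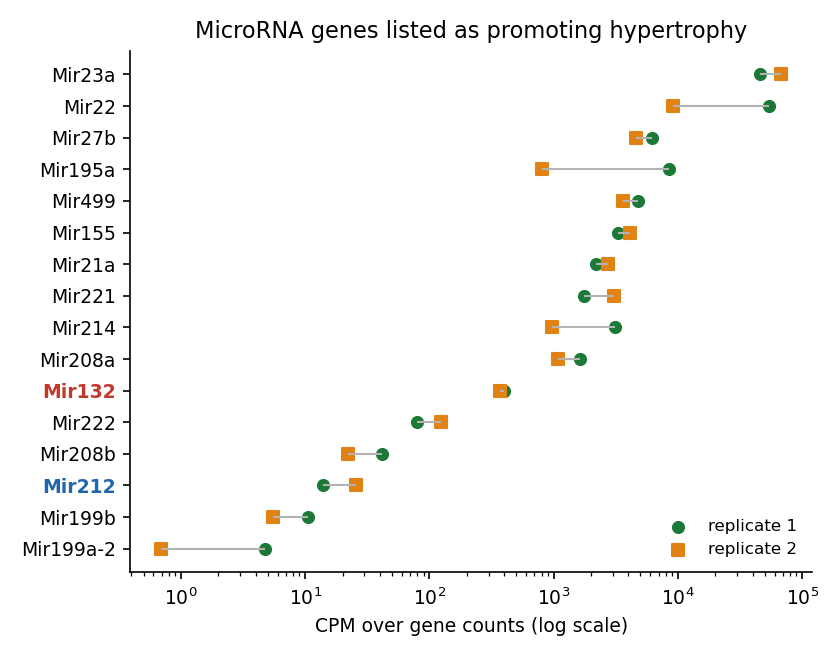
CPM over gene counts (x axis, log scale) in replicate 1 (circles) and replicate 2 (squares) of the genes listed as promoting hypertrophy, in order of mean CPM, without Mir199a-1, which had no count. The points of Mir132 nearly coincide, whereas Mir22 and Mir195a spread widely.

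The genes listed as restraining hypertrophy, or as falling in it, were led by Mir378a at 115946 ± 14606 CPM and Mir26b at 29902 ± 2182 CPM (SD, n = 2). Mir29a, whose family represses collagens, stood at 27521 ± 8755 CPM, Mir30a at 12689 ± 1249, Mir29c at 1615 ± 956 and Mir98 at 1283 ± 74.1 (SD, n = 2). Among the 9 tested genes of this list the test called 3 as higher and 4 as lower in replicate 2 and left 2 uncalled. Over all tested genes 35.3% were higher and 28.2% lower. The median log2 ratio of the 9 genes was -0.04. With DESeq2 size factors 2 of them were called as higher and 4 as lower, and 3 were uncalled. Mir1a and Mir133a, the muscle microRNAs with several loci, are in this list with unique reads only.

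Other microRNA genes known from neurons had fewer unique reads than Mir132. Among the listed genes, those of miR-128, miR-138, miR-219, miR-9 and miR-124 are copies at several loci whose shared reads were left out, so their mature microRNAs cannot be ranked against miR-132. Mir137 and Mir134 have 1 locus each. Of 14 listed genes 8 reached 1 CPM in both libraries, and the highest was Mir128-1 at 198 ± 59.7 CPM, against 384 ± 23.9 CPM for Mir132 (SD, n = 2). Mir137 stood at 70.1 ± 37.3 CPM, Mir138-1 at 43.8 ± 7.93, Mir138-2 at 34.2 ± 2.24, Mir134 at 21.9 ± 4.35 and Mir219a-2 at 17.7 ± 14.8 (SD, n = 2). No unique read fell on Mir9-2 or on any of Mir124a-1, Mir124a-2 and Mir124a-3, which sets no limit on their mature microRNAs. Among 8 tested genes the test called 5 as lower in replicate 2 and left 3 uncalled, with 0 called as higher, the direction of Mir212, beside 28.2% lower and 35.3% higher over all tested genes. Mir9-3, with 3 and 63 counts, was below the filter and was called as higher without it. Their median log2 ratio was -0.66.

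Cell type marker lists moved between the libraries too. The smooth muscle genes held 3.29% of gene counts in replicate 1 and 5.63% in replicate 2, and the leukocyte genes 0.600% and 0.835%, the direction of Mir212. The cardiomyocyte genes held 0.654% and 0.479%, the endothelial genes 17.6% and 5.00%, the fibroblast genes 0.531% and 0.373%, the erythroid genes 0.175% and 0.133% and the neuronal genes 0.0504% and 0.0342%. These are summed shares of unique reads, and in some lists the members differed in sign. Mir1a and Mir133a in the cardiomyocyte list, the Mir199 copies in the fibroblast list and most neuronal genes lost reads shared between loci. The shares thus cannot be ranked between lists as amounts of mature microRNA. In the endothelial list Mir126a had a log2 ratio of -1.83, while Mir221 (0.89) and Mir222 (0.73) were called as higher in replicate 2. Mir21a of the fibroblast list (0.39) and Mir486 of the erythroid list (0.22) were also called as higher, against their lists' summed shares. In tissue RNA, fewer cells of a type and less RNA per cell cannot be told apart. The part of cell makeup in the difference of Mir212 was not tested.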

How the data were processed

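MicroRNA sequencing of 2 heart libraries was analysed as 1 group, as the labels number them. The authors deposited raw counts of reads per microRNA gene in tables with columns for either strand, the strand of the gene and the opposite strand. The deposited readme names build mm10 and annotation M21. The aligner is not given in the sources used here. Per the deposited tables, 4 rows name no gene and were left out: unmapped reads (19.0% in replicate 1, 17.5% in replicate 2), reads at several loci (42.4%, 43.2%), reads outside genes (6.94%, 7.11%) and ambiguous reads (0%, 0%). All 2202 identifiers matched M21.

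CPM was computed over the gene counts of each library. A count of 0 allows 3 counts, which is 0.717 CPM in replicate 1 and 1.04 in replicate 2. Genes kept by edgeR 4.0.16 (filterByExpr, minimum count 10, R 4.3.3) were tested with a two-sided exact binomial test given library sizes scaled by TMM, called at a Benjamini-Hochberg adjusted p under 0.05. No edgeR test of groups was possible with 1 group. DESeq2 1.42.0 gave alternative size factors. Python 3.11.15, scipy 1.17.1 and RNAfold 2.7.2 were used. The tests were tried on simulated counts with counting error only. That trial does not show how they behave where libraries vary by more.

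The members and lists were chosen with earlier results of these data known. Named genes were the members, the 5 tested genes nearest in level, genes of the same seed, chromosome neighbours, cluster pairs of adjacent rank, and the 6 most abundant genes of the hypertrophy and neuronal lists with those at 0. Mir22 as the second neighbour, Mir208a, Mir208b, Mir199b, Mir199a-2, 1700017B05Rik and the neighbours in order of level were named after their values were seen. The Fisher tests over all cluster pairs, the comparison with genes of similar level and the GC classes were also added then.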

Additional observations from a re-analysis of the deposited data

Results flagged for a closer look

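Mir212 had 5 counts on the strand opposite to the gene in replicate 1, more than the 3 counts that a count of 0 allows, in a column that the levels do not use. They were 7.94% of its 63 counts on either strand there (exact Clopper-Pearson 95% interval 2.63 to 17.6). In replicate 2 there were 0 opposite-strand counts beside 74 on the strand of the gene, which allows up to 4.05%. Mir132 had 0 in both libraries, which allows up to 0.179% and 0.284%. Of 286 tested genes that overlap no microRNA gene of the other strand, 20 had any opposite-strand count and 5 had more than 3 in a library. Pooled over these 286 genes, 0.00269% of counts were on the opposite strand. With both libraries summed, 1 gene had a higher opposite-strand percent than Mir212.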

How the results depend on the processing

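Of 30 alternatives computed, 25 left the result on its side of the threshold, within its spread or, for gene or pair counts, within 1.5-fold. Another 3 moved a level and 2 brought a difference past the test. Leaving out 1 library could only come out within the spread, because each of 2 libraries lies less than 1 SD from their mean. Those alternatives are therefore no check of stability. The level of Mir132 was 517 CPM with reads counted regardless of strand and 123 per 1000000 of all reads, and that of Mir212 6.33 per 1000000 of all reads, because the denominators differ. The log2 ratio of Mir132 was -0.13 with plain totals and -0.20 with DESeq2 size factors, which brought it past the test as lower in replicate 2; over its alternatives the adjusted p ran from 0.000636 to 0.617. The log2 ratio of Mir212 ran from 0.79 to 0.96 and its adjusted p from 0.000688 to 0.00311 over the alternatives. Leaving out 1 library, the level of Mir132 was 367 to 401 CPM, that of Mir212 13.9 to 25.7 CPM and the share of Mir132 93.5% to 96.7%. With reads regardless of strand, the Fisher p of the balance was 0.000439. Without a filter, 30.2% of 709 genes differed between the libraries (214), against 63.4% of 309 (196). With gaps up to 1 kb 36 of 53 adjacent pairs differed, and with gaps up to 50 kb 53 of 88. With 58 and 74 counts, depth limits the precision of Mir212. No paired analysis was possible because the design has 1 group.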
